A study of Homo sapiens with 2 samples.

Results

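The miR-29 family in these data consists of the 3 mature miRNAs miR-29a-3p, miR-29b-3p and miR-29c-3p, taken by name from tables of 2038 mature miRNA names. They were measured in FaDu (FadU in the labels), an established squamous carcinoma line of the hypopharynx, in 2 small RNA libraries with 1 library per group. The parental culture was kept in RPMI-1640 medium containing 10% FBS (fetal bovine serum). The sphere cells, which the labels call sphere-derived cancer stem cells, were expanded in DMEM-F12 medium with the growth factors bFGF and EGF, each at 10 ng/ml, and N2 Plus Supplement, with no serum named. Both media held penicillin and streptomycin, and both libraries were made from 1 µg of total RNA. Medium, serum and growth as spheres changed together and cannot be told apart. With 1 library per group there is no replicate check and no test between conditions. The intervals below are 95% intervals for counting error only and compare these libraries.

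A mature miRNA guides Argonaute proteins to messenger RNAs, mainly through its seed, bases 2 to 8 from the 5′ end. The miR-29 family is known for repressing collagens and other matrix genes, the de novo DNA methyltransferases DNMT3A and DNMT3B, and the survival protein MCL1. In epithelial tumours it has often been described as a brake on matrix production and on growth. Each hairpin precursor yields a 3p arm, which is the functional guide in this family, and a 5p passenger arm that is mostly degraded.

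The mature sequences show what the members share and where they part. All names of the family were matched to RefSeq sequences (GRCh38.p14). Capitals mark the seed.

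miR-29a-3p: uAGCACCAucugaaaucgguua

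miR-29b-3p: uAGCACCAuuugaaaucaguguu

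miR-29c-3p: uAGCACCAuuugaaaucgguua

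The 3 members have the same seed. Counted from 1 at the 5′ end, miR-29a-3p and miR-29c-3p differ at 1 of 22 positions (C10U, the base of miR-29a-3p first). miR-29b-3p departs from miR-29c-3p at 3 positions (G18A, U21G and A22U, the base of miR-29c-3p first) and has 1 more base, for a length of 23 nt. Against miR-29a-3p it has the additional change C10U. Its 3′ end is the part known to direct miR-29b to the nucleus. Among the 1714 of 2038 names with a RefSeq mature sequence, no name outside the family had this seed at bases 2 to 8, and none shared only bases 2 to 7. miR-29a-3p and miR-29c-3p are so alike that a read with a sequencing error at base 10 can be given to the wrong one, and how the authors treated such reads is not given in the sources used here.

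The family comes from 4 hairpin genes in a pair of clusters, all on the minus strand. MIR29A (chr7:130876747-130876810) and MIR29B1 (chr7:130877459-130877539) lie 648 bp apart. MIR29C (chr1:207801852-207801939) and MIR29B2 (chr1:207802443-207802523) lie 503 bp apart. These are GRCh38 coordinates from RefSeq, whereas the submitters' processing notes name hg19. In GENCODE release 29 the hairpins of MIR29C and MIR29B2 lie wholly within exons of the lincRNA gene MIR29B2CHG. MIR29B1 lies wholly within an exon of the lincRNA gene LINC-PINT, which overlaps MIR29A by 2 bp. The annotation has a further lincRNA gene on the same strand that spans both of these hairpins, without an exon over either, and LINC00513 spans them on the opposite strand. The hairpins of MIR29B1 and MIR29B2 are shown with the mature 3p arm in capitals, because they release an identical miR-29b-3p.

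MIR29B1: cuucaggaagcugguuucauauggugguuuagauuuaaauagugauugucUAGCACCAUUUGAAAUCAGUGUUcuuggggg

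MIR29B2: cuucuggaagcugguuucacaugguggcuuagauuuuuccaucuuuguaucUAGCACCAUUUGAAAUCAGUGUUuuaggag

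A read of miR-29b-3p therefore cannot be assigned to chromosome 7 or chromosome 1. miR-29a-3p is specific to the chromosome 7 cluster and miR-29c-3p to the chromosome 1 cluster. Only the passenger arms separate all 4 genes.

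The deposited unit is RPKM, the reads per kilobase of mature sequence and per 1000000 reads. Low values fall on steps. The commonest step was 5.84 RPKM for parental cells and 8.07 RPKM for spheres, and it was taken as a single read on a miRNA of 22 nt. By that estimate miRNAs had 4550662 reads in parental cells, or 58.5% of the reads behind the RPKM, and 683674 reads in spheres, or 12.1%. The column sums were 26530004 and 5509071 RPKM, 4.82 times lower in spheres. Each member is therefore given on 2 scales, as deposited and as rescaled RPKM, which sets each column's sum to 1000000 so that a value is a share of the miRNA signal. Log2 folds are those of (value + 0.5) in spheres over parental, and the deposited scale moves them by -2.27.

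The squamous and epithelial markers were present. miR-205-5p, a miRNA of squamous epithelium, had a rescaled level of 21938 in parental cells and 19458 in spheres, miR-31-5p 9379 and 15598, and miR-203a, abundant in differentiating epithelium, 2698 and 35056. All 5 miR-200 family members were measured, with summed levels of 6369 and 25313, and they did not move alike. The most abundant were miR-141-3p (2710 and 12264), miR-200a-3p (1859 and 11026), miR-200b-3p (975 and 790) and miR-200c-3p (585 and 925). As deposited, the family's log2 folds ran from -2.57 for miR-200b-3p to 0.30 for miR-200a-3p. Markers of other cells had lower sums. The 7 blood markers summed to 745 and 241, of which miR-486-5p made 741 and 207, while the erythroid miR-451a had 2 and 4 reads and miR-144-3p, named after its value was seen, was listed at 0 in both libraries. miR-142-5p had 3.25 and 12.3 rescaled RPKM, and miR-150-5p 13.2 in spheres with 0 listed for the parental library. The 6 fibroblast and smooth muscle markers summed to 3053 and 2569, almost all of it miR-10b-5p (3024 and 2493), which carcinoma cells can also express. Of the others, miR-143-3p had 25.9 and 66.3, miR-199a-3p 2.02 and 7.08, and miR-199a-5p 1.05 and 1.40. Only 2 of the 6, miR-10b-5p and miR-143-3p, were measured. The endothelial miR-126-5p and miR-126-3p summed to 192 and 445, while 3 neural markers, chiefly miR-9-5p and miR-128, summed to 660 and 658, with miR-124-3p listed at 0 in both libraries. The liver marker miR-122-5p was listed at 0 in both libraries, and the 3 muscle markers summed to 1.98 and 17.0. The part of these cells or media in the miR-29 values was not tested.

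All 3 members of the miR-29 family were abundant enough to measure in each library. By RPKM miR-29a-3p was the highest, then miR-29c-3p, then miR-29b-3p, and this order held in both libraries. As shares of the miRNA signal all 3 were higher in spheres, by 1.91-fold, 2.02-fold and 1.31-fold. On the deposited scale all 3 were lower, and with scaling to the upper quartile of values above 0 they were lower too. Each scaling multiplies a library by a single factor, so the order of the 3 log2 folds is the same under all by construction. miR-29b-3p had the lowest of them.

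miR-29a-3p, the member specific to the chromosome 7 cluster, had 25688 RPKM in parental cells and 10206 in spheres, on about 4398 and 1264 reads. Its rescaled level was 968 in parental cells and 1853 in spheres. It was 1.91-fold higher in spheres as a share of miRNA (1.80 to 2.04), a log2 fold of 0.94. It was 2.52-fold lower as deposited, a log2 fold of -1.33. It ranked 53 of all names in parental cells and 43 in spheres.

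miR-29c-3p, which differs from it by a single base and comes from chromosome 1, had 19716 RPKM in parental cells and 8275 in spheres, on about 3376 and 1025 reads. Its rescaled level went from 743 to 1502, a 2.02-fold difference (1.88 to 2.17) and a log2 fold of 1.01. It was 2.38-fold lower as deposited, at -1.25 in log2. Its rank was 57 in parental cells and 52 in spheres. The intervals of miR-29a-3p and miR-29c-3p both hold the 2-fold line, so that only miR-29c-3p passes it rests on less than the counting error.

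miR-29b-3p, made by both clusters, had 11197 RPKM in parental cells and 3053 in spheres, on about 2004 and 395 reads. Its rescaled level was 422 in parental cells and 554 in spheres, a 1.31-fold difference (1.17 to 1.46) and a log2 fold of 0.39. As deposited it was 3.67-fold lower, at -1.87 in log2. It ranked 78 in parental cells and 74 in spheres. Scaling to the total without the 10 most abundant miRNAs brought its log2 fold to -0.0048, about level, so whether it was higher in spheres depends on the scaling.

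**Figure D1:**
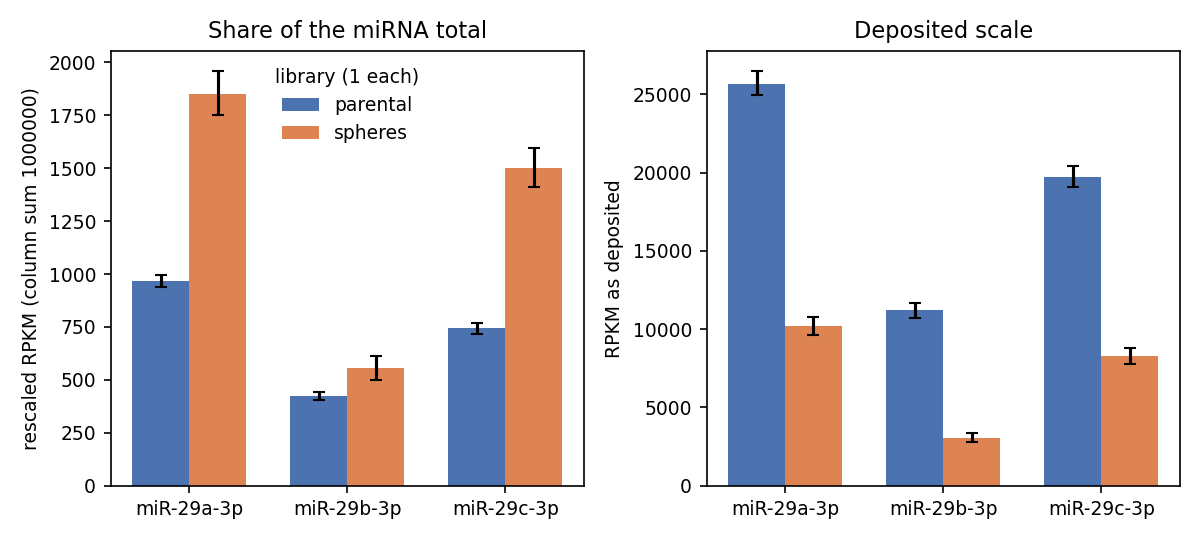
Levels of the 3 miR-29 3p arms in the parental and sphere libraries (1 library each), as rescaled RPKM with the column sum set to 1000000 (left) and as deposited RPKM (right). Bars are values and error bars are 95% counting intervals. Each sphere bar is above its parental bar on the left (miR-29a-3p 1853 against 968) and below it on the right (10206 against 25688).

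Summed, the family made up 0.213% of the miRNA signal in parental cells and 0.391% in spheres. In rescaled RPKM the sum was 2133 and 3909, or 1.83 times as high in spheres (1.75 to 1.91), while the deposited sum of 56601 RPKM in parental cells and 21534 in spheres was 2.63-fold lower. The most abundant miRNAs of the libraries were far above the family. let-7a-5p alone took 24.3% of the parental signal, and miR-21-5p 25.9% of the sphere signal.

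The members' proportions to each other do not depend on the scaling between libraries. They are proportions of the sequenced signal. How evenly the library preparation captured each member was not measured, and the counting intervals do not cover it. miR-29a-3p was 1.30 times as abundant as miR-29c-3p in parental cells (1.25 to 1.36) and 1.23 times in spheres (1.13 to 1.34). These intervals overlap, and the difference in log2 fold, miR-29a-3p minus miR-29c-3p, was -0.079 (-0.21 to 0.056). A difference between this pair was thus not detectable at this depth, and the interval allows either sign.

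Against miR-29b-3p both parted beyond counting error. miR-29a-3p was 2.29 times as abundant as miR-29b-3p in parental cells (2.18 to 2.42) and 3.34 times in spheres (2.98 to 3.75), a difference in log2 fold of 0.54 (0.36 to 0.72). miR-29c-3p was 1.76 times as abundant as miR-29b-3p in parental cells (1.67 to 1.86) and 2.71 times in spheres (2.41 to 3.05), a difference of 0.62 (0.44 to 0.81). In estimated reads, miR-29b-3p made up 20.5% of the family in parental cells (19.7% to 21.3%) and 14.7% in spheres (13.4% to 16.1%). miR-29a-3p went from 45.0% (44.0% to 46.0%) to 47.1% (45.2% to 49.0%). miR-29c-3p went from 34.5% (33.6% to 35.5%) to 38.2% (36.3% to 40.1%). Whether cultures of the same kind would differ as much was not measured.

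In sequence, the pair whose folds could not be told apart differs only by C10U and comes from separate clusters. The member that parted from it has the other 3′ end and is made by both clusters. Whether sequence or locus has a part in the folds was not tested. These are descriptions of 3 miRNAs.

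**Figure D2:**
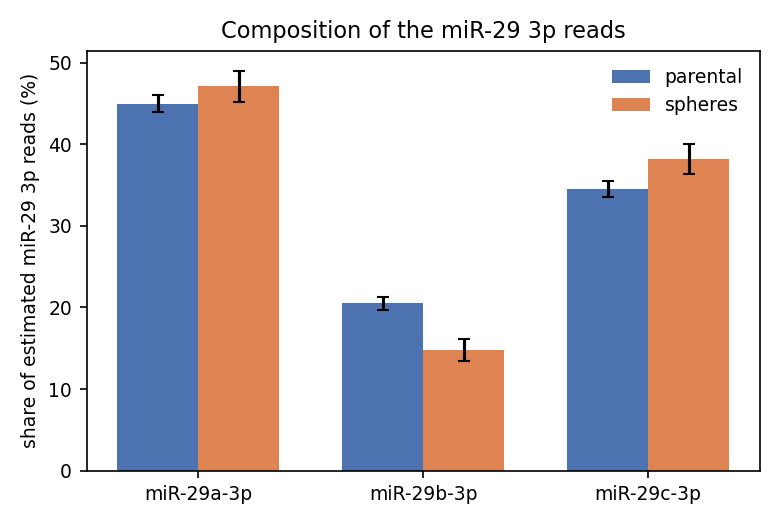
Share of each member in the estimated reads of the 3 miR-29 3p arms, in percent, in the parental and sphere libraries (1 each). Error bars are 95% exact binomial intervals. The intervals of miR-29b-3p (20.5% and 14.7%) do not overlap, nor do those of miR-29c-3p (34.5% and 38.2%). Those of miR-29a-3p (45.0% and 47.1%) do.

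The members were read against the 269 measured miRNAs, whose rescaled RPKM averaged 10 or more over the libraries. All 3 members pass this level in each library alone. At least 2-fold higher in spheres were 62 of the 269, or 23.0%, and 1 of the 3 members, miR-29c-3p. At least 2-fold lower were 51, or 19.0%, and no member. As deposited, 17 miRNAs (6.32%) were at least 2-fold higher and 214 (79.6%) at least 2-fold lower, and all 3 members were among the lower ones. Scaling to the total without the 10 most abundant miRNAs gave 47 higher and 75 lower, and to the upper quartile of values above 0, 23 and 189. With 3 members, 1 call among them is close to the share of all measured miRNAs and is no result about the family.

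The median log2 fold of the 269 was 0.02 after rescaling and -2.25 as deposited, with quartiles of -0.70 and 0.84 after rescaling. miR-29a-3p and miR-29c-3p lay above the upper quartile, and miR-29b-3p between the median and the upper quartile. Ordered from the highest log2 fold, miR-29c-3p ranked 62, miR-29a-3p 65 and miR-29b-3p 95 of 269. As deposited, their ranks were 63, 65 and 95, so their deficits on that scale were smaller than those of most measured miRNAs.

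**Figure D3:**
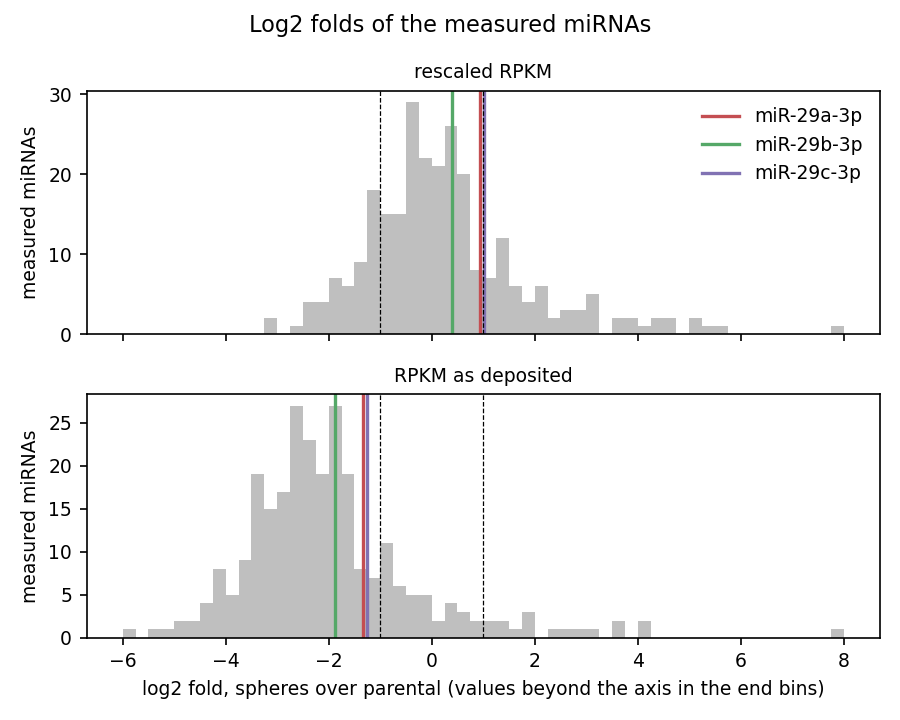
Histograms of the log2 folds (spheres over parental) of the 269 measured miRNAs, as rescaled RPKM (top) and RPKM as deposited (bottom), with coloured lines at the 3 members and dashed lines at 2-fold. On the top miR-29a-3p (0.94) and miR-29c-3p (1.01) lie at the upper 2-fold line and miR-29b-3p (0.39) within the bulk, and on the bottom the members lie at -1.87 to -1.25.

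The passenger arms are the only readout that separates the 4 genes, and they were near the floor. None of the 4 reached the level counted as measured. With their seeds in capitals they read as follows, and no seed is shared among them or with the 3p arms.

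miR-29a-5p: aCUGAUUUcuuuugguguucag

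miR-29b-1-5p: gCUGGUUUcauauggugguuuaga

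miR-29b-2-5p: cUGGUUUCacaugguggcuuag

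miR-29c-5p: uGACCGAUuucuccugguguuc

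miR-29a-5p, the passenger of MIR29A, had 117 RPKM in the parental library and was listed at 0 in spheres, which is 20 reads and none. In rescaled RPKM the parental level of 4.40 matched the 4.40 that 3 sphere reads are worth, so a difference was not detectable at this depth. miR-29c-5p had 134 RPKM in parental cells and 16.1 in spheres, or 23 and 2 reads. Its rescaled levels were 5.06 and 2.93, a ratio of 0.58 in spheres over parental (0.066 to 2.34).

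Of the miR-29b passengers, miR-29b-1-5p from chromosome 7 had 48.2 RPKM in parental cells and 32.1 in spheres, or 9 and 4.33 reads. Its rescaled levels were 1.82 and 5.82, a ratio of 3.21 (0.67 to 10.6), and as deposited it was lower in spheres. miR-29b-2-5p from chromosome 1 had 6.42 RPKM in parental cells, or 1.10 reads, and was listed at 0 in spheres. Under this estimate, fractions such as 4.33 mean that the deposited values include parts of reads. On 10.1 parental and 4.33 sphere reads, the miR-29b passengers cannot tell which cluster supplied miR-29b-3p in either library.

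The 3p arm outweighed the 5p arm by 220 to 1 for miR-29a (142 to 360) and 147 to 1 for miR-29c (97.7 to 232) in parental cells. In spheres the miR-29c ratio was 512 (142 to 4238) on 2 passenger reads, and this interval overlaps the parental one. For miR-29a the passenger arm was undetected in spheres, so no ratio or interval was calculated. Taking 3 reads for that arm would give 421. This is a set value and no bound like the intervals, so a change from parental cells cannot be read from it. For miR-29b, with its 2 passengers summed, the order was the opposite, with 198 to 1 in parental cells (109 to 419) and 91.2 to 1 in spheres (38.3 to 364), and these intervals overlap. Over the family the passenger arms held 0.54% of the reads of both arms in parental cells and 0.24% in spheres, on 53.1 and 6.33 reads. The intervals of the family's 3p to 5p ratio also overlapped, at 141 to 246 in parental cells and 205 to 1220 in spheres. The summed rescaled level of the passenger arms had a ratio of 0.76 in spheres over parental (0.26 to 1.75). Hairpins with both arms listed and a major arm averaging 100 or more rescaled RPKM numbered 83. By the median over these, the minor arm had a smaller share in spheres. That median was 1.07% in parental cells and 0.57% in spheres. Of the 83 minor arms, 4 had 0 reads in parental cells and 11 in spheres. The miRNA reads numbered 4550662 and 683674, and the part of depth in the medians was not tested. In the order of the parental arm ratio from the most lopsided, miR-29a ranked 30 and miR-29c 33 of the 83.

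The miRNAs with the levels most like each member were taken by the distance between log2(rescaled RPKM + 0.5) values over the 2 libraries. With only 2 libraries, likeness means similar levels and folds. For miR-29b-3p the nearest were miR-155-5p, an NF-kB-induced miRNA, at a distance of 0.027 with 422 and 544 rescaled RPKM, miR-130a-3p (0.10) and miR-27a-5p (0.26). For miR-29a-3p they were miR-181b-5p (0.30) with 1045 and 1524, miR-192-5p (0.36) and miR-100-5p (0.63). For miR-29c-3p they were miR-215 (0.41) with 606 and 1231, miR-181b-5p (0.49) and miR-26b-5p (0.54). miR-215 and miR-26b-5p had log2 folds of 1.02 and 1.06, beside 1.01 for miR-29c-3p. As deposited they were at -1.25 and -1.21, beside -1.25.

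**Figure D4:**
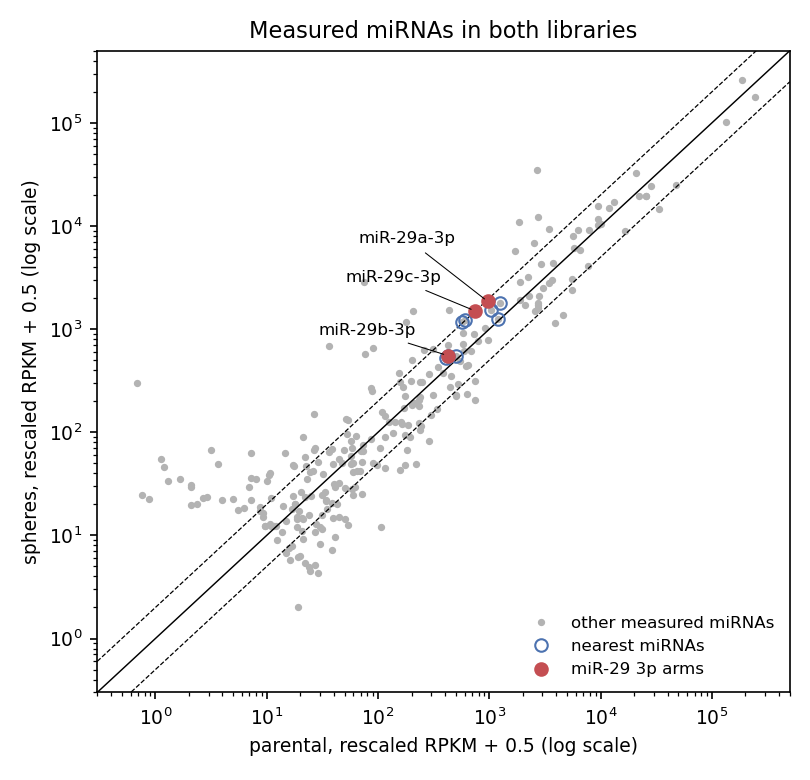
Rescaled RPKM + 0.5 of the 269 measured miRNAs in the parental (x) and sphere (y) library on log axes. Red points are the miR-29 members, open circles their nearest miRNAs, the solid line marks equal shares and the dashed lines 2-fold. miR-29c-3p (743 and 1502) and miR-29a-3p (968 and 1853) lie at the upper dashed line, miR-29b-3p (422 and 554) nearer the solid one.

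In the order of levels each member had neighbours whose counting intervals overlapped its own. miR-29a-3p stood between miR-200b-3p (975 rescaled RPKM) and miR-99a-5p (922) in parental cells. In spheres it stood between miR-101-3p (1922) and miR-93-5p (1790). miR-29c-3p stood between let-7a-3p (746) and miR-486-5p (741) in parental cells and between miR-24-3p (1509) and miR-320a (1482) in spheres. miR-29b-3p stood between miR-181d (423) and miR-155-5p (422) in parental cells. In spheres its neighbours were miR-210 (569) and miR-27a-5p (554).

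Other miRNAs linked to the processes that miR-29 acts on were summarised by lists. Their counts stand beside the shares of all 269 measured miRNAs, 23.0% higher and 19.0% lower after rescaling and 6.32% higher and 79.6% lower as deposited, and nothing particular to a list is read from them. Of 9 miRNAs linked to DNA methylation and chromatin, all measured, 4 were at least 2-fold higher in spheres (23.0% of all measured) and none lower (19.0%), with a median log2 fold of 0.65. As deposited none was higher (6.32%) and 6 of the 9 were lower (79.6%), with a median of -1.62. The most abundant were miR-22-3p, which targets the demethylase TET2, at 0.65 in log2 (-1.62 as deposited), miR-26a-5p, a repressor of EZH2, at 0.30 (-1.97), miR-148a-3p, which targets DNMT1, at 0.08 (-2.18), and miR-101-3p, a further repressor of EZH2, at 0.02 (-2.25). The 4 higher ones were less abundant, at a mean below that of miR-29c-3p. They were miR-26b-5p (2.08-fold, 1.92 to 2.26), miR-342-3p (2.64-fold, 1.86 to 3.69), miR-143-3p (2.56-fold, 1.75 to 3.66) and miR-152 (2.63-fold, 1.78 to 3.88). All 4 were below 0 in log2 as deposited. The last 3 had between 38.5 and 50.0 sphere reads, and miR-342-3p was named after its value was seen.

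Of 12 miRNAs linked to matrix and TGF-beta signalling, 8 were measured. miR-34a-5p, a p53 target named after its value was seen, was the 1 of 8 that was higher (23.0% of all measured), at 5.80-fold (4.42 to 7.63). As deposited it was at 0.27 in log2 and did not pass 2-fold. After rescaling, no measured member passed 2-fold in the other direction. The list median was 0.49, and -1.78 as deposited, where 7 of the 8 were lower (79.6%). miR-21-5p, which promotes fibrosis, was at 0.46 in log2 (-1.81 as deposited). miR-192-5p was at 0.52 (-1.75), miR-30c-5p at -0.13 (-2.40) and let-7d-5p at -0.39 (-2.66). Of 6 miRNAs linked to MCL1 and BCL2, 5 were measured. Of these 5, 1 was higher and none lower, beside 23.0% and 19.0% of all measured, with a median of 0.02. As deposited 4 of the 5 were lower, beside 79.6%, with a median of -2.25. The higher one was miR-193b-3p at 2.45-fold (2.16 to 2.78), and at -0.97 in log2 as deposited. miR-16-5p was at -0.16 in log2, miR-125b-5p at -0.14 and miR-101-3p at 0.02, and as deposited these were at -2.43, -2.41 and -2.25.

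The miR-30 family, like miR-29 a set of near-identical guides spread over several loci, had no member at least 2-fold higher or lower among 5, beside 23.0% and 19.0% of all measured. Its median log2 fold was 0.34, and -1.93 as deposited, where all 5 were lower, beside 79.6%. miR-30e-5p was at 0.55, miR-30a-5p at 0.38, miR-30d-5p at 0.34 and miR-30c-5p at -0.13. Of miR-148a-3p, miR-148b-3p and miR-152, which share a seed and target the maintenance methyltransferase DNMT1, only miR-152 was at least 2-fold higher, 1 of 3 beside 23.0%, and the median was 0.08. As deposited the median was -2.18, 2 of the 3 were lower, beside 79.6%, and miR-152 was at -0.87. The miR-29 median, the value of miR-29a-3p, was 0.94 (-1.33 as deposited). Differences between these families were not tested.

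**Figure D5:**
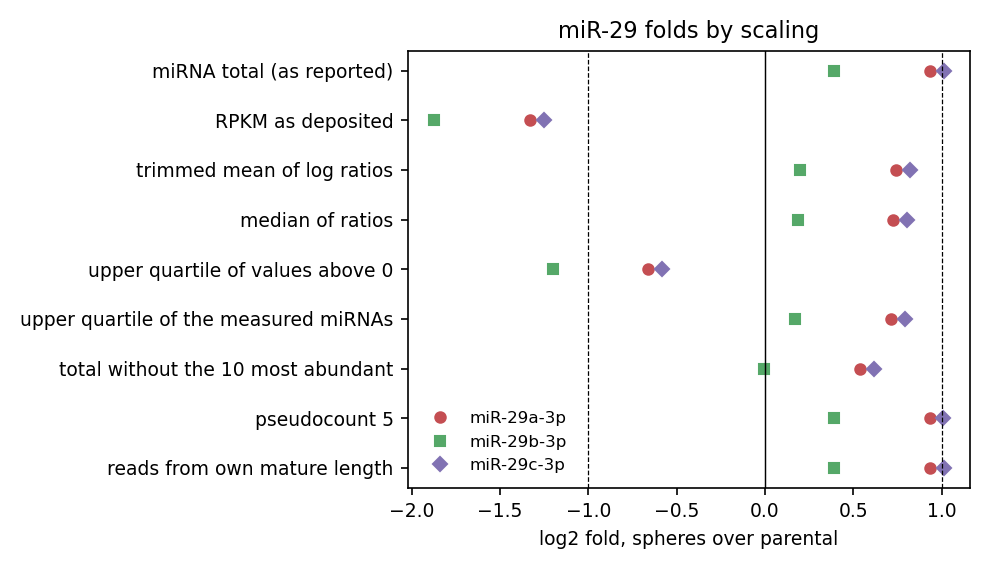
Log2 folds (spheres over parental) of the 3 members under each way of scaling the libraries, of setting the pseudocount or of counting reads; dashed lines mark 2-fold. The spacing of the members is nearly constant between scalings by construction, with miR-29b-3p lowest. Their place moves from above 0 to below 0 as deposited (-1.87 to -1.25) and with the upper quartile of values above 0 (-1.20 to -0.58).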

How the data were processed

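Small RNA libraries of parental FaDu cells and spheres, 1 each, were prepared by size selection with a TruSeq kit for small RNA, per the labels' protocols. The authors deposited 1 RPKM value for each of 2038 mature miRNA names, per the file headers. The submitters' processing notes name hg19. Which aligner and annotation release were used, and how reads matching several places were treated, is not given in the sources used here.

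Here each column was rescaled to sum to 1000000, and log2 folds used a pseudocount of 0.5, which understates changes of low miRNAs. A filter kept miRNAs averaging 10 or more rescaled RPKM. Calls are folds of at least 2, with no test. Reads were estimated as RPKM times mature length (RefSeq, or 22 nt without a match), divided by the same product for the commonest value. Of values between 0.9 and 5.1 estimated reads, 61.7% of 248 (parental) and 64.6% of 189 (spheres) were whole within 0.001 reads. The commonest step may not be 1 read. Intervals are 95% Clopper-Pearson intervals of estimated reads rounded to whole numbers, and those of differences in log2 fold are normal approximations. PCR copies are not independent molecules. A value of 0 was taken to allow up to 3 reads, a set limit that is not one of these intervals.

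The miRNAs named are the 3 members, their 4 passenger arms, the 3 nearest miRNAs of each member, its neighbours in rank, the most abundant miRNA of each library, and up to 4 members of each list by mean level. miR-34a-5p, miR-342-3p and miR-144-3p are outside this rule and were named after their values were seen. The lists are miRNAs linked to DNA methylation and chromatin, to matrix and TGF-beta, and to MCL1 and BCL2, the miR-30 and miR-148 families, and markers of squamous epithelium, epithelium, fibroblasts and smooth muscle, blood, endothelium, liver, muscle and neural cells. Members and lists were chosen with earlier results of these data known. Alternatives covered scaling, pseudocount, filter, call rule, mature length and read assignment. The fold calls and intervals were tested on simulated data. Python 3.11.15, numpy 2.4.6, scipy 1.17.1 and matplotlib 3.10.9 were used.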

Additional observations from a re-analysis of the deposited data

How the results depend on the processing

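The sign and size of the miR-29 folds changed with the scaling. As reported, the log2 folds of miR-29a-3p, miR-29b-3p, miR-29c-3p and the family sum were 0.94, 0.39, 1.01 and 0.87, with 1 member at least 2-fold higher and 0 lower. In the same order, RPKM as deposited gave -1.33, -1.87, -1.25 and -1.39, with 0 members higher and 3 lower, 17 of all measured miRNAs higher and 214 lower, and -0.58 for miR-29b-1-5p. The upper quartile of values above 0 gave -0.66, -1.20, -0.58 and -0.72, with 0 members higher and 1 lower and 23 and 189 of all measured miRNAs. By its construction it is taken over 903 parental names and 672 sphere names. Under 4 further scalings 0 members passed 2-fold. These were the trimmed mean of log ratios (0.74, 0.20, 0.82 and 0.68), the median of ratios (0.73, 0.18, 0.81 and 0.67), the upper quartile of the measured miRNAs, added after seeing the data (0.72, 0.17, 0.79 and 0.65), and the column total less its 10 most abundant miRNAs (0.54, -0.0048, 0.62 and 0.48). Where the interval as a whole had to pass 2-fold, 0 members, 46 higher and 18 lower measured miRNAs were left. With no filter 193 were higher and 180 lower, and with a mean level of 100 or more 23 and 18, with more or fewer miRNAs compared by construction. A pseudocount of 5 and reads from each mature length left the member folds within their counting intervals. The differences in log2 fold between members are nearly unmoved by the scalings by construction. They stayed within their counting intervals with the pseudocount of 5. With miR-29a-3p and miR-29c-3p summed, the difference from miR-29b-3p was 0.58. No paired analysis was possible because each group has 1 library, which also leaves no replicate to drop. The passenger arms, on at most 23 reads, limit any statement on the separate loci.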
